A study of Homo sapiens with 5 samples.

Results

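Interferon-stimulated genes are the genes that cells switch on when interferon reaches them, and 45 of 46 listed members were measured here, out of 14912 genes that could be named in the table analysed, which covers chromosomes 1 to 8 and some of 9. The members were chosen by gene symbol from a list, and 1 listed member, the RNA sensor RIGI, was not analysed here. Of the 45 members, 41 had 1 probe set and 4 had several, of which the one with the highest mean over the 5 arrays was taken. RNA came from 5 lines of HMLE, human mammary epithelial cells that have been immortalised, with 1 array per line. Each of 4 lines overexpressed a driver of the epithelial to mesenchymal transition (EMT), the transcription factor FOXQ1, SNAI1, TWIST1 or ZEB2, and the control was the LACZ line, which carries a reporter gene from bacteria. All 5 shared the HMLE background and none was treated, per the labels. The promoter of each construct, and whether a line was 1 clone or a pool of cells, are not given in the sources used here.

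Interferons are secreted proteins, and cells release those of type I when they sense viral nucleic acids. Type I interferons act through a receptor, JAK kinases and STAT proteins on a promoter sequence called the interferon-stimulated response element (ISRE), while interferon gamma acts mainly on the gamma-activated site (GAS). The induced genes encode sensors of foreign nucleic acid, proteins that block viral replication, chemokines that attract T cells, and the transcription factors that sustain the response. In epithelial cells many of them also have a low resting expression that needs no infection.

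The deposited values are called levels here and taken to be log2, and a difference is the first array minus the second on that scale. A gene was called higher or lower when the difference reached 1, which is 2-fold if the base is 2, and the brighter array of the pair reached a level floor of 4.72. The floor is the median of the mean levels of all named genes. With 1 array per line there was no replicate, so no test was possible, no difference has a replicate check and no p-values are given. The share of all named genes past the same fold is the background, given beside the counts over all members. Of the 14912 named genes 7790 are protein coding, so the background also holds other gene types. A background of protein-coding genes alone was not computed. Where an array is below the floor, the deposited difference is printed, but it is not an exact ratio and its rank among differences is not measured. Of the members, 38 reached the floor on at least 1 array, and the other 7, CXCL9, CXCL10, CXCL11, GBP4, GBP5, PYHIN1 and RTP4, stayed below it on all 5. Of the 14912 named genes, 8492 reached it on at least 1 array, a smaller share than of the members. Genes below the floor cannot be called, which lowers the background, so it is not matched to the members for level. How much of the gap to the members this makes up was not tested. The medians of the arrays over all probe sets lay between 4 and 4.05, and over the named genes between 4.7 and 4.72 in FOXQ1, TWIST1 and ZEB2 and at 4.61 in SNAI1, against 4.73 in LACZ. Arrays are named below by their factor.

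The promoters of the members were searched first, because the ISRE is the sequence that interferon signalling is known to act on. Its core, GAAA followed by any 2 bases and GAAA again, was looked for on both strands, from 250 bases before to 50 bases after each transcript start in the RefSeq promoters of GRCh38.p14. It was found for 25 of the 41 members with a promoter in that table, or 61%, against 301 of 7323 other named genes, or 4.11%. Over all 35116 promoters of the table the share was 3.57%. The GAS letters TTCNNNGAA, which read the same on both strands, were found for 11 of 41 members, or 26.8%, against 9.48% of the other named genes and 7.66% of all promoters. No ISRE core overlapped a GAS match in the same gene, and 3 pairs of ISRE cores overlapped each other. The list holds genes known to respond to interferon, so these shares describe such genes and not these lines, and genes with several listed promoters had more than 1 chance to match.

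The 4 members with an ISRE core and the widest range of deposited levels over the 5 arrays, levels under the floor included, were IFIH1, PARP14, TNFSF10 and TLR3, and their promoters show where the letters lie. Each is printed 5′ to 3′ on the strand of the gene, 260 bases that end 10 bases into the transcript, with every ISRE core in capitals. IFIH1 is on the minus strand at chr2:162318675-162318934, PARP14 on the plus strand at chr3:122680589-122680848, TNFSF10 on the minus strand at chr3:172523421-172523680 and TLR3 on the plus strand at chr4:186068906-186069165.
IFIH1: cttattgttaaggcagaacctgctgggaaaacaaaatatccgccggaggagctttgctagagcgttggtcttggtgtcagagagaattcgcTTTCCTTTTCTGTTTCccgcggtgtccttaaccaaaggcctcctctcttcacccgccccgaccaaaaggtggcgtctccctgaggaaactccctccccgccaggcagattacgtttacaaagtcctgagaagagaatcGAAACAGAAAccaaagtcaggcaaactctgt
PARP14: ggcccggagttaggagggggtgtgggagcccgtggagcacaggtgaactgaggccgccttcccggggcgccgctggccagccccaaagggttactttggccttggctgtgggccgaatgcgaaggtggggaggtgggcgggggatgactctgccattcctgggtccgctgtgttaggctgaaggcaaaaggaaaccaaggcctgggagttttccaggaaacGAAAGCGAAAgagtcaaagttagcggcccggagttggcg
TNFSF10: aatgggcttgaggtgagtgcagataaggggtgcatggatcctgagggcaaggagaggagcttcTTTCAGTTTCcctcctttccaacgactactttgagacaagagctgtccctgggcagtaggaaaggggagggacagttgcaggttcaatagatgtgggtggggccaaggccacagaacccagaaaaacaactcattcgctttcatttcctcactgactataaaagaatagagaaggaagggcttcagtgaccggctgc
TLR3: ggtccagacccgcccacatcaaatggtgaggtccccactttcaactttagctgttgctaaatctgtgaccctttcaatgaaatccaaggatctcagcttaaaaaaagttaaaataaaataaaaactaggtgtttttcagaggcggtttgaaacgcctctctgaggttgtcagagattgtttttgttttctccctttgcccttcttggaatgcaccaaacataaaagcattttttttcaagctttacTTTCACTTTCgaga
IFIH1 held 3 cores, 2 of which overlap in the first run of capitals, and the other 3 genes held 1 each. In TLR3 the core spanned the transcript start, and in PARP14 it began 29 bases before the start, after a GAS match that began 40 bases before it.

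Compared with LACZ, the SNAI1 array had the most members on the low side. There, 22 of 45 members were called lower and 1 higher, with a background of 8.01% of all named genes lower and 4.26% higher. The median difference of the members was -0.96, against -0.09 over all named genes. The FOXQ1 array was split, with 9 members called higher and 9 lower, where the background was 6.55% higher and 6.96% lower, and a median of 0. The TWIST1 array had 2 members called higher and 10 lower, with a background of 7.28% and 4.22% and a median of -0.16. On the ZEB2 array 2 members were called higher and 13 lower, with a background of 6.4% and 4.32% and a median of -0.35. The median over all named genes was 0 on the FOXQ1, TWIST1 and ZEB2 arrays. All 4 comparisons use the same LACZ array, so their calls are not independent of each other. In bulk RNA, fewer cells that express a gene and less RNA per cell cannot be told apart.

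**Figure D1:**
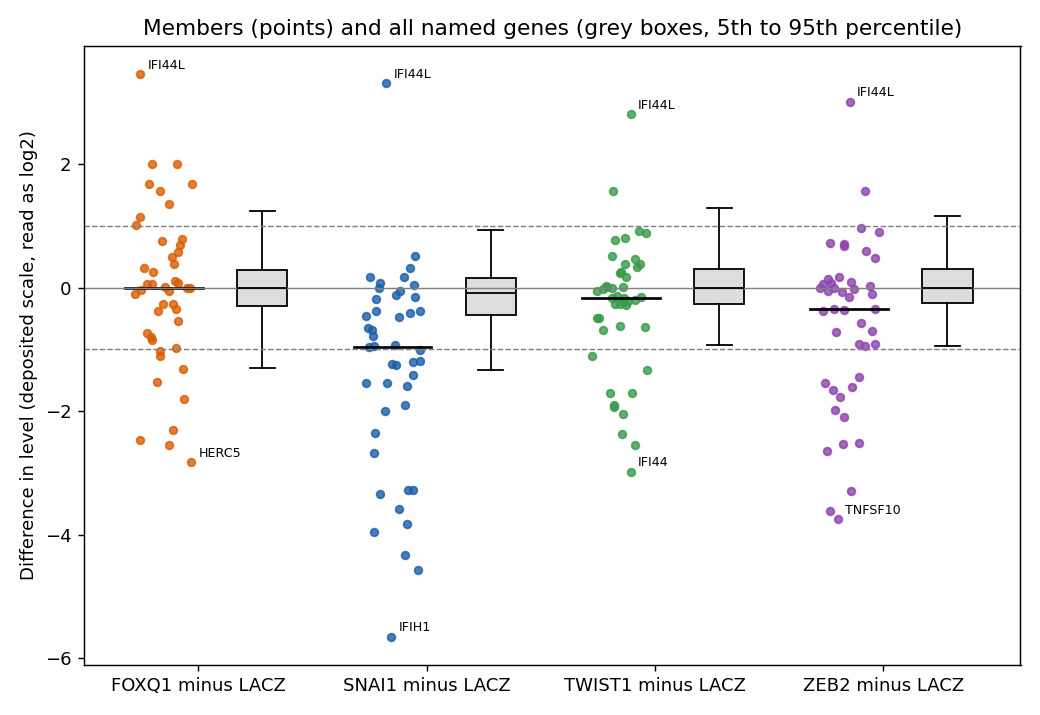
Difference in level from the LACZ array for each factor array (vertical axis, deposited scale read as log2). Points are the 45 members, black lines their medians, and grey boxes show the 5th, 25th, 50th, 75th and 95th percentiles of all 14912 named genes. The points of SNAI1 reach down to -5.65 (IFIH1), and IFI44L is the highest point on all 4 arrays.

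The signalling members comprise a receptor chain and proteins that regulate transcription. IFNGR1, a chain of the interferon gamma receptor, had levels of 8.35 in FOXQ1, 8.07 in SNAI1, 9.46 in TWIST1 and 8.5 in ZEB2, against 9.08 in LACZ. Its difference reached the threshold on SNAI1 alone, at -1.01, which was the value just past it on that array, and -0.89 after centring each array on its median gene, under it. IRF1, a transcription factor that switches on interferon target genes, was at 8.92 in FOXQ1, 5.18 in SNAI1, 7.86 in TWIST1 and 7.24 in ZEB2, against 9.76 in LACZ. Every factor array was below LACZ, and SNAI1 was lowest, with a difference of -4.58. IRF2, a related factor that often opposes IRF1, was at 10.5, 8.26, 9.98 and 9.91 in FOXQ1, SNAI1, TWIST1 and ZEB2, against 10.61 in LACZ. Only the SNAI1 value, a difference of -2.35, was called.

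NMI, a protein that binds STAT factors, was at 9.5 in FOXQ1, 6.1 in SNAI1, 8.82 in TWIST1 and 7.99 in ZEB2, against 9.44 in LACZ. FOXQ1 and LACZ were alike to within 0.06, while SNAI1 differed from LACZ by -3.34 and ZEB2 by -1.45. STAT4, a transducer best known from lymphocytes, lay between 3.87 and 4.55 on the factor arrays and at 4.78 in LACZ, near the floor, and was not called. Of these 5 members, 0 were called lower on FOXQ1, 4 on the SNAI1 array, 1 on TWIST1 and 2 on ZEB2, where 6.96%, 8.01%, 4.22% and 4.32% of all named genes were, and none was called higher.

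Among the sensors of nucleic acid, IFIH1 spanned the widest range of deposited levels. IFIH1, also called MDA5, detects long double-stranded RNA in the cytoplasm. It was at 7.96 in FOXQ1, 3.34 in SNAI1, 6.62 in TWIST1 and 6.9 in ZEB2, against 8.99 in LACZ. On SNAI1 it was below the floor, so that difference, -5.65, has one side at the bottom of the scale and is not an exact ratio. TLR3, the endosomal receptor for double-stranded RNA, was at 9.27 in FOXQ1, 6.05 in SNAI1, 7.27 in TWIST1 and 5.28 in ZEB2, against 7.26 in LACZ. It was called higher on FOXQ1, by 2.01, and lower on SNAI1 and ZEB2, at -1.21 and -1.98, while TWIST1 was level with LACZ.

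EIF2AK2, the kinase PKR that halts translation when it binds double-stranded RNA, was called on SNAI1 alone, where its level was 12.59. It lay between 13.79 and 13.94 on the other factor arrays, against 14.14 in LACZ. IFI16, a nuclear and cytoplasmic DNA sensor, was at 15.33 in FOXQ1, 13.58 in SNAI1, 14.71 in TWIST1 and 12.99 in ZEB2, against 14.54 in LACZ. Its call was lower on ZEB2, by a difference of -1.55, and SNAI1 missed the threshold at -0.96. The DNA sensor AIM2 and PYHIN1, of the same gene family as IFI16, lay between 3.72 and 4.82 on the factor arrays, and at 4.44 and 4.07 in LACZ, close to or below the floor.

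Antiviral effectors made up the largest role group, with 18 members, and held 5 of the 7 genes called lower on every factor array. ISG15, a ubiquitin-like protein that is attached to other proteins, was at 9.13 in FOXQ1, 8.31 in SNAI1, 9.89 in TWIST1 and 9.06 in ZEB2, against 11.59 in LACZ. HERC5, the ligase that attaches ISG15, was at 3.17, 3.32, 3.96 and 2.7 in FOXQ1, SNAI1, TWIST1 and ZEB2, against 6 in LACZ. Both were lower on each factor line, and HERC5 was above the floor on LACZ only. DDX60, a helicase that promotes sensing of viral RNA, was at 7.09 in FOXQ1, 5.58 in SNAI1, 6.85 in TWIST1 and 6.75 in ZEB2, against 9.4 in LACZ. SAMD9, a restriction factor of poxviruses, was at 9.72, 9.25, 9.92 and 9.64 in FOXQ1, SNAI1, TWIST1 and ZEB2, against 11.25 in LACZ. Across the 4 factor arrays SAMD9 spanned less than its gap to LACZ, whose smallest value was a difference of -1.33.

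IFI44 and IFI44L, a pair of neighbouring interferon-induced genes, went opposite ways. IFI44 was at 8.04 in FOXQ1, 7.3 in SNAI1, 7.6 in TWIST1 and 6.96 in ZEB2, against 10.58 in LACZ. IFI44L was at 6.92, 6.77, 6.27 and 6.47 in FOXQ1, SNAI1, TWIST1 and ZEB2, against 3.46 in LACZ, which is below the floor. The differences of the factor arrays from LACZ thus ran from -2.54 to -3.62 for IFI44 and between 2.81 and 3.46 for IFI44L. IFI6, a mitochondrial and endoplasmic reticulum protein that blocks cell death and flavivirus replication, was also on the high side. It was at 5.89 in FOXQ1, 4.73 in SNAI1, 5.77 in TWIST1 and 5.17 in ZEB2, against 4.21 in LACZ, and was called on FOXQ1 and TWIST1 at 1.68 and 1.56. The LACZ level of IFI6 is below the floor too, so these differences are not exact ratios.

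ZC3HAV1, the zinc finger antiviral protein that binds viral RNA, was at 9.12 in FOXQ1, 8.53 in SNAI1, 9.94 in TWIST1 and 10.28 in ZEB2, against 10.43 in LACZ. It was called lower on FOXQ1 and SNAI1, at -1.31 and -1.9. PNPT1, a mitochondrial RNA-degrading enzyme, was called on FOXQ1 alone, where its level of 7.66 compared with 8.76 in LACZ. DDX60L, a relative of DDX60, was at 9.06, 8.77, 8.09 and 9.67 in FOXQ1, SNAI1, TWIST1 and ZEB2, against 10.03 in LACZ, with calls on SNAI1 and TWIST1. With the median of its 2 probe sets those differences were -0.88 and -0.96, under the threshold. By the probe set taken, the other effectors were called on 1 array at most. SAMD9L was higher on FOXQ1, by 1.14, and HERC6 was lower on SNAI1, at -1.59. Another HERC6 probe set was at 3.9, 4.35, 4.39 and 4.74 in FOXQ1, SNAI1, TWIST1 and ZEB2, against 6.36 in LACZ. By that probe set HERC6 was lower by over 1 on every factor array. A further HERC6 probe set, at 5.55 in LACZ, did not reach the threshold on any. PLSCR1, ADAR, MOV10, RSAD2, CMPK2 and RTP4 were called on none. ADAR, which edits double-stranded RNA, ranged from 7.83 in SNAI1 to 9.12 in TWIST1, against 8.2 in LACZ. RSAD2, the antiviral enzyme viperin, and its neighbour CMPK2 lay between 4.47 and 4.81 on the factor arrays and at 4.49 and 4.51 in LACZ. In this group 7 members were lower and 3 higher on FOXQ1, 8 and 1 on the SNAI1 array, 6 and 2 on TWIST1, and 5 and 1 on ZEB2. Over all named genes 6.96% were lower and 6.55% higher on FOXQ1, 8.01% and 4.26% on the SNAI1 array, 4.22% and 7.28% on TWIST1, and 4.32% and 6.4% on ZEB2.

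**Figure D2:**
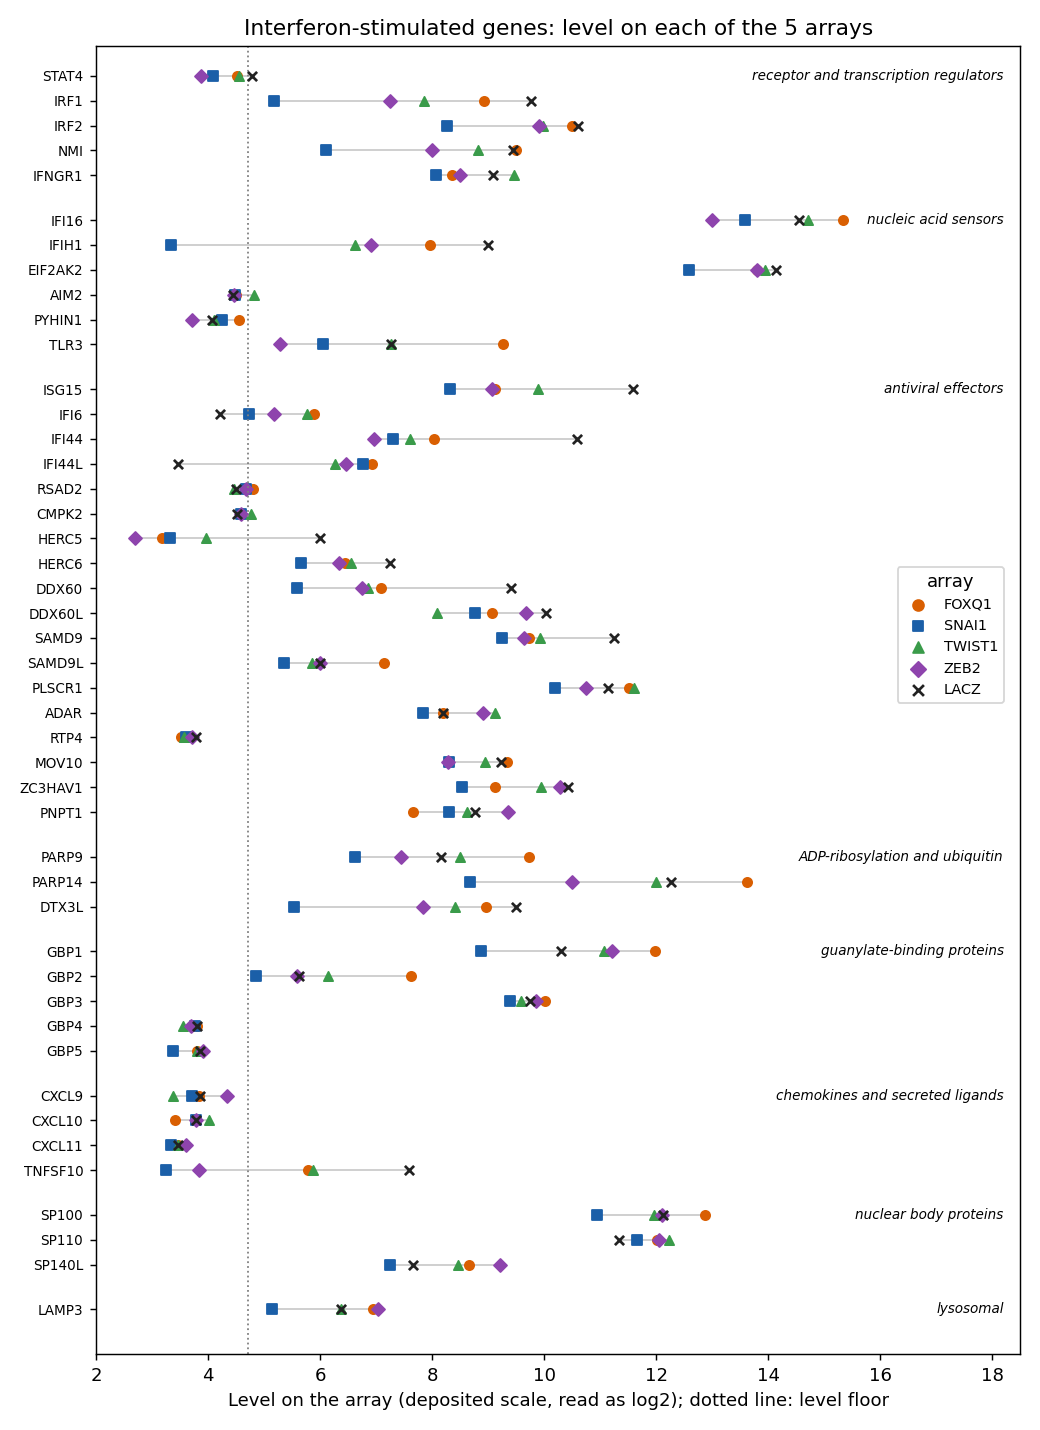
Level of each of the 45 members on the 5 arrays (horizontal axis, deposited scale read as log2), by role. Each symbol is 1 array, the grey line joins the lowest and highest array of a gene, and the dotted line is the floor of 4.72. SNAI1 (blue squares) is at the left end for IRF1, NMI, IFIH1, PARP14 and DTX3L, and LACZ (crosses) at the right end for ISG15, IFI44, HERC5 and DDX60.

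PARP9, PARP14 and DTX3L lie near each other on chromosome 3, between 122527924 and 122730840 (RefSeq, GRCh38.p14). PARP9 and DTX3L form a complex that joins ADP-ribosylation to ubiquitination in the interferon response, and PARP14 is a further ADP-ribosyltransferase. PARP14 was at 13.62 in FOXQ1, 8.68 in SNAI1, 12 in TWIST1 and 10.49 in ZEB2, against 12.26 in LACZ. PARP9 was at 9.72, 6.62, 8.49 and 7.44 in FOXQ1, SNAI1, TWIST1 and ZEB2, against 8.16 in LACZ. DTX3L was at 8.96 in FOXQ1, 5.54 in SNAI1, 8.4 in TWIST1 and 7.84 in ZEB2, against 9.5 in LACZ. The order of the factor arrays was the same for all 3 genes, FOXQ1 highest, then TWIST1, ZEB2 and SNAI1. FOXQ1 lay above LACZ for PARP9 and PARP14, by 1.56 and 1.36, and below it for DTX3L, at -0.54. PARP9 and DTX3L are transcribed away from each other, from listed starts at 122564300 for PARP9 and 122564338 for DTX3L, and share 1 ISRE core at chr3:122564332-122564341, which reads GAAACTGAAA on the strand of DTX3L and TTTCAGTTTC on that of PARP9. It was the only core found in the promoters of 2 members.

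Guanylate-binding proteins are GTPases, induced above all by interferon gamma, that attack intracellular pathogens. GBP1 was at 11.98 in FOXQ1, 8.88 in SNAI1, 11.07 in TWIST1 and 11.21 in ZEB2, against 10.3 in LACZ. It was called higher on FOXQ1, by 1.68, and lower on SNAI1, at -1.42, with LACZ in between. GBP2 was at 7.63, 4.85, 6.14 and 5.58 in FOXQ1, SNAI1, TWIST1 and ZEB2, against 5.63 in LACZ, and was called on FOXQ1 alone, at 2. GBP3 stayed between 9.38 and 10.01 on the factor arrays and at 9.75 in LACZ. GBP4 and GBP5 were below the floor throughout. The 5 genes lie within chromosome 1 from 89006680 to 89272860, and these neighbours did not share one pattern.

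Of the secreted members, only TNFSF10 reached the floor. TNFSF10, the death ligand TRAIL, was at 5.78 in FOXQ1, 3.25 in SNAI1, 5.87 in TWIST1 and 3.83 in ZEB2, against 7.58 in LACZ. SNAI1 and ZEB2 were below the floor, and FOXQ1 and TWIST1 lay between them and LACZ, with differences of -1.8 and -1.71. The T cell chemokines CXCL9, CXCL10 and CXCL11, classical targets of interferon gamma, lay between 3.34 and 4.34 on the factor arrays and between 3.46 and 3.86 in LACZ. Below the floor these values have no measured order.

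SP100, SP110 and SP140L encode nuclear body proteins that bind chromatin. SP100, a restriction factor of DNA viruses, was at 12.87 in FOXQ1, 10.94 in SNAI1, 11.95 in TWIST1 and 12.1 in ZEB2, against 12.12 in LACZ, and was called lower on SNAI1 alone. SP140L was at 8.66, 7.24, 8.46 and 9.21 in FOXQ1, SNAI1, TWIST1 and ZEB2, against 7.65 in LACZ. It was called higher on ZEB2, by 1.56, and on FOXQ1 by 1.01, the value closest to the threshold there. SP110 was not called on any array, with levels of 11.65 to 12.22 on the factor arrays and 11.33 in LACZ. LAMP3, a lysosomal membrane protein of maturing dendritic cells that interferon also induces elsewhere, was at 6.95 in FOXQ1, 5.14 in SNAI1, 6.37 in TWIST1 and 7.04 in ZEB2, against 6.37 in LACZ. It too was called on SNAI1 alone, at -1.23.

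Members that lie within 500 kb of each other formed 10 groups with 27 genes, and several groups held unlike neighbours. IFI44L and IFI44 are adjacent on chromosome 1, at 78620448 to 78646145 and 78649789 to 78664078, and differed from LACZ in opposite directions on all 4 arrays. Both hold an ISRE core, GAAAAAGAAA at 164 and again at 73 bases before the start of IFI44L, and TTTCAGTTTC at 18 bases before the first start of IFI44. SAMD9 and SAMD9L, adjacent on chromosome 7, both act against poxviruses. On the FOXQ1 array the differences from LACZ were -1.53 for SAMD9 and 1.14 for SAMD9L, and on the other arrays SAMD9L differed by -0.65 to 0. DDX60 differed more from LACZ than DDX60L on every array. HERC5, next to HERC6, was below the floor on every factor array, so the sizes of their differences were not ranked. IFI44 and IFI44L, the SAMD9 pair, the DDX60 pair and the GBP genes are related in sequence, and whether their probes pick up each other's transcripts was not tested.

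**Figure D3:**
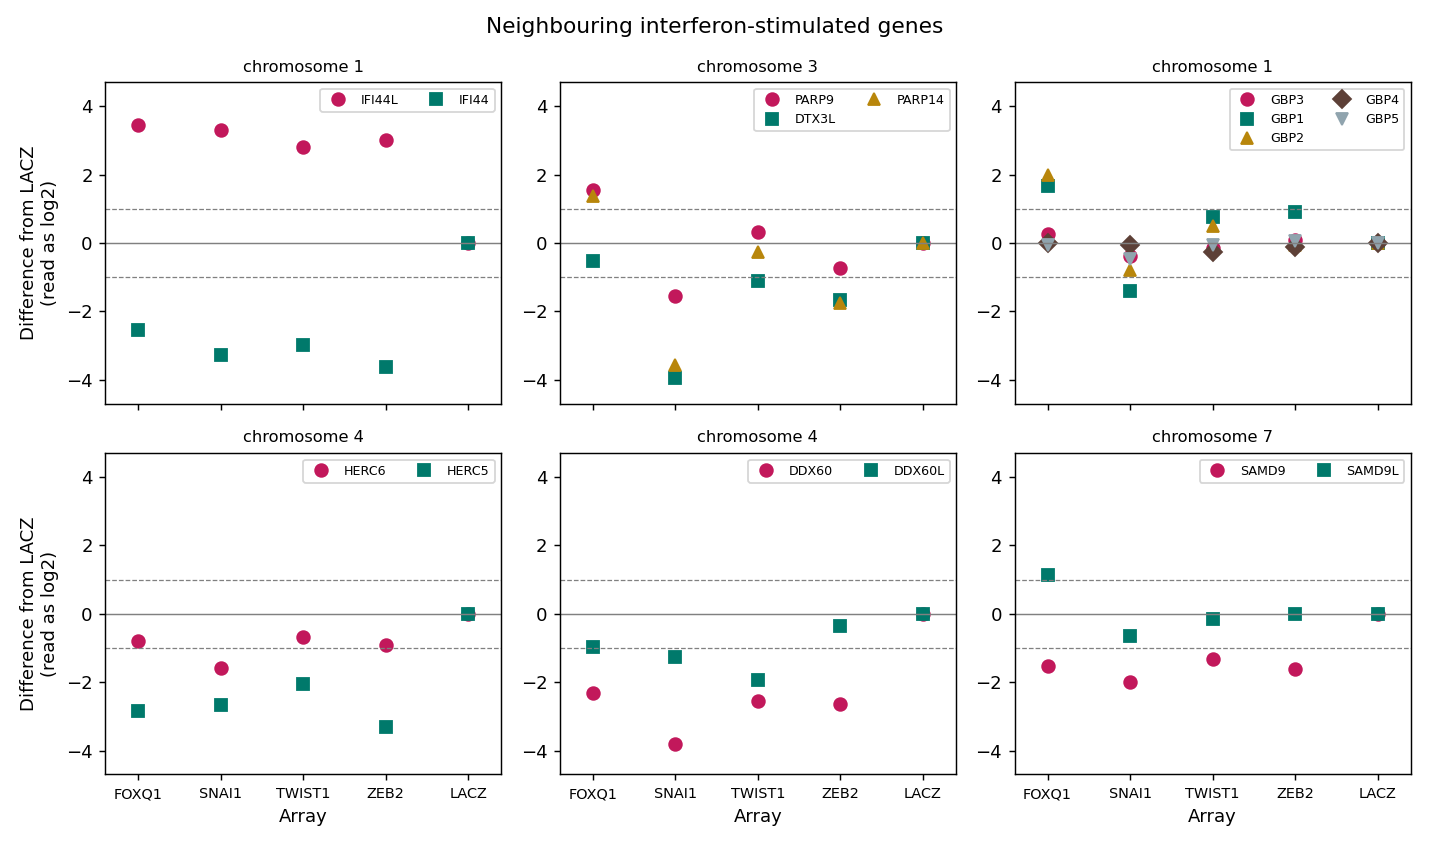
Difference in level from LACZ (vertical axis, deposited scale read as log2) for 6 groups of neighbouring members on the factor arrays, with LACZ at 0 on the right. Symbols are genes and dashed lines mark 2-fold. IFI44L lies above 2.8 and IFI44 below -2.5 on all 4 factor arrays, while PARP9, DTX3L and PARP14 share their lowest value on SNAI1.

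Comparing the factor arrays with each other leaves the LACZ array out. Between FOXQ1 and SNAI1, 21 of 45 members were called higher on FOXQ1 and 0 lower, with a background of 7.21% higher and 3.83% lower. The median difference was 0.79, against 0.08 over all named genes. Of the members above the floor on both arrays, PARP14 differed most, by 4.94, followed by IRF1 at 3.74, DTX3L at 3.42 and NMI at 3.4. IFIH1, below the floor on SNAI1, differed by 4.62 as deposited. Between SNAI1 and TWIST1, 0 members were called higher on SNAI1 and 23 lower, where the background was 1.35% and 7.03%. Between SNAI1 and ZEB2 the counts were 0 higher and 15 lower on SNAI1, with a background of 1.35% and 6.3%. GBP1 and DTX3L differed there by -2.33 and -2.3, and IFIH1, below the floor on SNAI1, by -3.56 as deposited. These pairs share the SNAI1 array, so they are not independent of each other.

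FOXQ1 had 7 members called higher and 1 lower against TWIST1, with a background of 2.33% and 5.39%. Against ZEB2 it had 13 higher and 2 lower, with a background of 3.89% and 6.58%. TLR3 led both, at 2 and 3.99. The members lower on FOXQ1 were IFNGR1 against TWIST1, at -1.11, which was not called after quantile normalization, and PNPT1 and ZC3HAV1 against ZEB2, at -1.69 and -1.16. TWIST1 and ZEB2 were the pair with the fewest calls, 5 members higher and 1 lower on TWIST1, where the background was 2.79% and 2.17%. TNFSF10, TLR3, IFI16, PARP14 and PARP9 were the 5, at 2.04, 1.99, 1.72, 1.51 and 1.05, and DDX60L was the 1, at -1.58, which was not called with the median of its probe sets. TNFSF10 was below the floor on ZEB2.

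**Figure D4:**
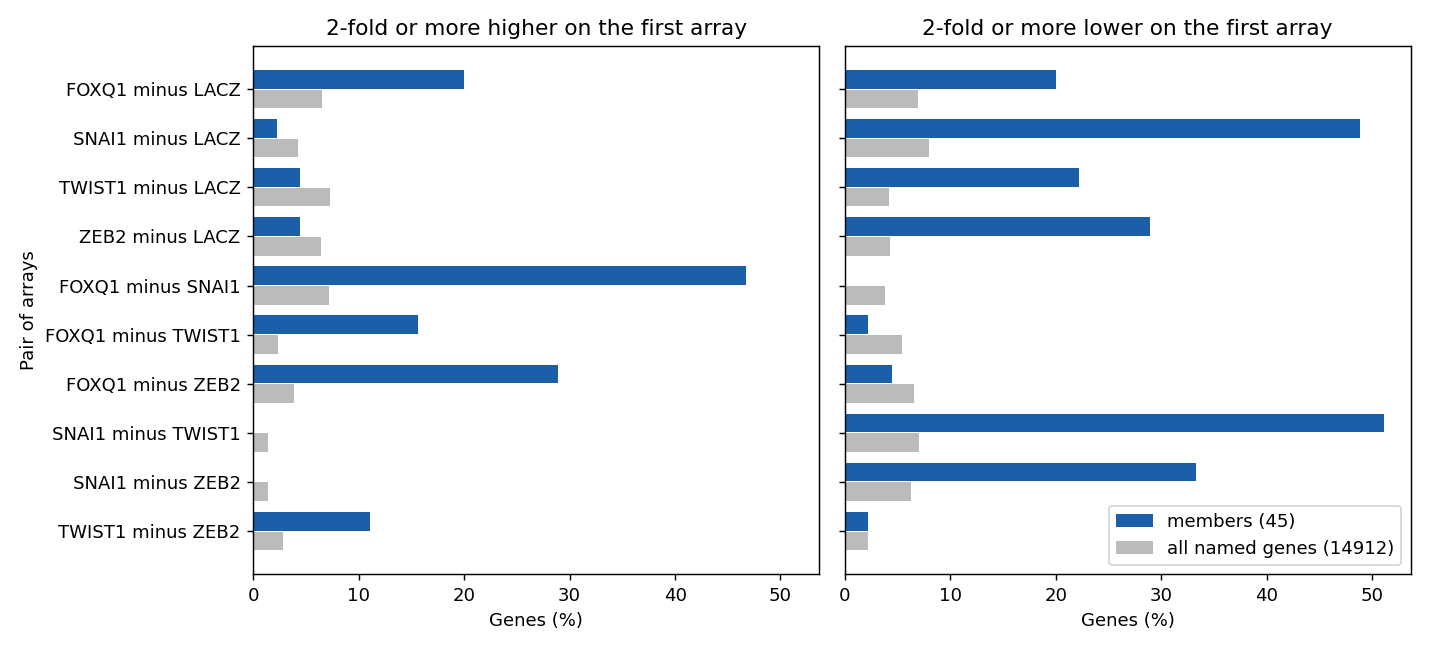
Share of genes (horizontal axis, percent) that were 2-fold or more higher (left) or lower (right) on the first array of each pair, with the floor. Blue bars are the 45 members and grey bars all 14912 named genes. The longest blue bars are those of SNAI1 on the low side, with 48.9% of members against LACZ and 51.1% against TWIST1, and of FOXQ1 over SNAI1 with 46.7% on the high side.

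The order of the arrays was also taken from the levels. SNAI1 was the lowest of the 5 arrays for 26 of the 45 members and the highest for 0, and over all named genes it was lowest for 30.8% and highest for 11.6%. LACZ was the highest array for 17 members and FOXQ1 for 15, with 24.2% and 21.7% over all named genes. TWIST1 was highest for 7 members, or 15.6%, and ZEB2 for 6, or 13.3%, with 19.3% and 20.7% over all named genes. These counts include the 7 members that stayed below the floor, whose order carries no measured difference. LACZ stood at least 2-fold above each factor array for 7 members, ISG15, IFI44, IFIH1, HERC5, DDX60, SAMD9 and TNFSF10, and at least 2-fold below each for IFI44L. That was so for 2.28% and 2.17% of all named genes, and all 4 differences share the LACZ array. IFIH1 was the closest to the threshold, at -1.03 in FOXQ1, and after quantile normalization that difference was -0.98, under it. With the median of probe sets 8 members were lower on each factor array, HERC6 being the one added, and 2.21% of all named genes were. In all, 29 of 45 members were called on at least 1 factor array, where 23.3% of all named genes were. Opposite calls against LACZ, higher on one factor array and lower on another, were made for 4 members, PARP9, PARP14, GBP1 and TLR3, and for 0.697% of all named genes.

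Members with and without the ISRE core were set side by side, as a description. Of the 25 members with the core, SNAI1 had 15 called lower and 1 called higher, and their median difference was -1.42. Of the 16 with a promoter but no core, 5 were called lower and 0 higher, with a median of -0.67, where the background was 8.01% lower and 4.26% higher. On FOXQ1 the 25 members with the core included 6 called higher and 7 lower, and the 16 without it 2 and 2, with a background of 6.55% and 6.96%. On TWIST1 the counts were 2 higher and 9 lower with the core, and 0 and 1 without it, with a background of 7.28% and 4.22%. On ZEB2 they were 1 and 11 with the core, and 1 and 2 without it, with a background of 6.4% and 4.32%. The medians with and without the core were -0.03 and 0.04 on FOXQ1, -0.26 and -0.06 on TWIST1, and -0.38 and -0.08 on ZEB2. All 7 members called lower on every factor array hold the core, where 25 of the 41 members with a promoter do, or 61%. IFI44L, called higher on every factor array, holds it too. IRF1, without an ISRE core, holds the GAS match TTCCCCGAA at 124 bases before its start.

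Genes of the pathway outside the list were given by lists written with earlier results of these data known. Of 20 measured interferon-induced genes among 21 listed, 6 were called higher and 5 lower on FOXQ1, 0 and 7 on the SNAI1 array, 1 and 2 on TWIST1, and 0 and 3 on ZEB2. The background was 6.55% higher and 6.96% lower on FOXQ1, 4.26% and 8.01% on the SNAI1 array, 7.28% and 4.22% on TWIST1, and 6.4% and 4.32% on ZEB2, so that the 1 gene higher on TWIST1 is no more than that share of 20 genes. BTN3A2, a butyrophilin that serves gamma delta T cell responses, was at 9.8 in FOXQ1, 5.54 in SNAI1, 8.01 in TWIST1 and 7.53 in ZEB2, against 7.53 in LACZ. Its FOXQ1 level was the highest and its SNAI1 level the lowest, as for GBP1. GBP6 was at 3.97, 4.06, 3.85 and 3.77 in FOXQ1, SNAI1, TWIST1 and ZEB2, against 5.69 in LACZ. NT5C3A, a pyrimidine nucleotidase, was at 11.99, 11.25, 12.57 and 12.14 in FOXQ1, SNAI1, TWIST1 and ZEB2, against 13.25 in LACZ. PARP12 was at 6.7, 5.6, 6.65 and 7.99 on the same factor arrays, against 7.84 in LACZ. GBP6 was thus below LACZ by over 1 on all 4 arrays, NT5C3A on 3 and PARP12 on 3. The GBP6 levels were under the floor on all 4 factor arrays, so the differences of GBP6 are not exact ratios.

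Of 8 listed genes of receptors, kinases and signal transducers, 7 were measured, with 0 higher and 2 lower on each of FOXQ1 and SNAI1, and 1 higher and 1 lower on each of TWIST1 and ZEB2, against the same background. CGAS, the cytoplasmic DNA sensor, was at 6.6 in FOXQ1, 7.6 in SNAI1, 7.83 in TWIST1 and 8.01 in ZEB2, against 9.38 in LACZ, below LACZ on every factor line. IKBKE, a kinase that activates interferon regulatory factors, was at 4.16, 4.52, 4.73 and 4.72 in FOXQ1, SNAI1, TWIST1 and ZEB2, against 5.71 in LACZ. It was called lower on FOXQ1 and SNAI1, where its levels were under the floor. JAK1, the kinase used by both interferon types, lay between 10.76 and 11.32 on the factor arrays and at 10.39 in LACZ, and was not called. Of 4 other listed interferon regulatory factor genes 3 were measured and none was called. Of 17 interferon ligands 1 was measured, IFNK, whose 5 values were under the floor, so the ligands were not assessed.

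Markers of leukocytes, which also express several members, were examined on the same arrays. Of 10 markers 7 were below the floor on all 5 arrays, among them CD2, CD14, CD8A and HLA-DRA, and PTPRC, the common leukocyte antigen, lay between 4.9 and 4.94 on the factor arrays and at 5.03 in LACZ. The summed levels of the 10 were 49.58 in FOXQ1, 43.62 in SNAI1, 47.91 in TWIST1 and 45.94 in ZEB2, against 44.67 in LACZ. A sum of log levels is not an amount of RNA and does not measure leukocyte content. The only markers of the 10 called on any array were LAPTM5 and IL7R. LAPTM5 differed from LACZ by 4.27 on FOXQ1 and -2.4 on ZEB2, and IL7R by 2.59 on TWIST1 and 4.07 on ZEB2. LAPTM5, a lysosomal protein, was at 10.45 in FOXQ1, 5.67 in SNAI1, 7.29 in TWIST1 and 3.78 in ZEB2, against 6.18 in LACZ. IL7R, a cytokine receptor chain of lymphocytes, was at 10.35, 10.15, 11.99 and 13.47 in FOXQ1, SNAI1, TWIST1 and ZEB2, against 9.4 in LACZ. LAPTM5 was highest in FOXQ1 and IL7R in ZEB2, and their part in the results was not tested. All 6 epithelial markers were called lower on every factor array, where 2.28% of all named genes were. Their summed levels lay between 22.13 and 27.51, against 83.93 in LACZ. Of the 5 mesenchymal markers, 4 were called higher on FOXQ1, where FN1 differed by 0.42, and all 5 on each other factor array. Between 4.26% and 7.28% of all named genes were. Their summed levels lay between 66.44 and 68.98, against 40.66 in LACZ. These marker lists were chosen with earlier results of these data known, so their calls are not independent of that choice.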

How the data were processed

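RNA of 5 HMLE lines was measured on 1 Affymetrix array each, grouped by the sample titles, with no replicates. Per the submitters' processing notes the Transcriptome Analysis Console and hg38 were used. Version, settings and normalization are not given in the sources used here. Values are those the authors deposited, taken to be log2 because they run from 1.99 to 19.73 and no base is stated. They cover 65521 probe sets of chromosomes 1 to 8 and some of 9. The platform annotation gave 1 symbol to 16126, several to 419 and none to 48976. By RefSeq gene ID or symbol (GRCh38.p14) 15764 were found, and 198 whose chromosome differed from the identifier were left out, leaving 14912 genes. No detection calls were used, and the number of arrays limits the precision.

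The members and all lists were chosen with earlier results of these data known. All members found are accounted for. Values on every array are given for members called on at least 2 factor arrays and those leading their role group, and outside genes were named when called on at least 2 arrays, at most 5 per list, by size of difference. JAK1, IFNK and the markers named were chosen after their values were seen, as were the motif sites quoted beside the 4 promoters. Alternatives were quantile normalization over all probe sets, centring on the median gene, the median over probe sets, other floors and other fold thresholds. Calling was tested on simulated data, with changes well past the threshold in genes well above the floor. The simulation did not assess calls near either, nor real array-to-array error. Python 3.11.15, numpy 2.4.6, pandas 2.3.3 and matplotlib 3.10.9 were used.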

Additional observations from a re-analysis of the deposited data

Results flagged for a closer look

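Members called higher than LACZ on one factor array and lower on another were PARP9, PARP14, GBP1 and TLR3, 4 of 45, where 0.697% of all named genes were. FOXQ1 was the high side each time. FOXQ1 minus SNAI1 was 3.1 for PARP9, 4.94 for PARP14, 3.1 for GBP1 and 3.22 for TLR3, and FOXQ1 minus ZEB2 was 3.13 for PARP14 and 3.99 for TLR3. With 1 array per line these differences between lines were not tested.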

How the results depend on the processing

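Each line had 1 array, so no array could be left out of a group, and array-to-array error is unknown. No paired analysis was possible because each group holds a single sample. None of the 68 called member differences turned its sign under quantile normalization, centring on the median gene or the median of probe sets, and 4 fell under the threshold in one of these, IFIH1 on FOXQ1 (-0.98 after quantile normalization), IFNGR1 on SNAI1 (-0.89 after centring) and DDX60L on SNAI1 and TWIST1 (-0.88 and -0.96 with the median of probe sets). The median difference of the members on FOXQ1, SNAI1, TWIST1 and ZEB2 was 0.01, -0.91, -0.16 and -0.33 after quantile normalization, and 0.03, -0.84, -0.13 and -0.34 after centring. With the median of probe sets it was 0, -0.94, -0.15 and -0.27, and over the 38 members that reached the floor 0.06, -1.22, -0.16 and -0.48. Over all named genes that reached the floor it was -0.01, -0.16, 0.03 and 0.03. With the floor at percentile 75 of gene means, members higher than LACZ numbered 5 for FOXQ1, 0 for SNAI1, 0 for TWIST1 and 1 for ZEB2, where 4.5%, 2.6%, 4.9% and 4.2% of all named genes were, and 0 for all 4 at once, since the levels of IFI44L are below that floor (1.45% of all named genes). At 1.5-fold, members higher were 6 on TWIST1 and 8 on ZEB2, with 12.8% and 12% of all named genes. At 3-fold, 5 were higher and 5 lower on FOXQ1 (3.45% and 3.54% of all named genes), 14 lower on SNAI1 (3.5%), and 1 higher on each of TWIST1 and ZEB2 (3.47% and 2.94%). Other counts against LACZ, by array and for all 4 at once, stayed within 1.5 times. Among them, the median of probe sets gave 10 lower on FOXQ1 (6.81%), 14 lower on ZEB2 (4.17%) and 8 lower on all 4 at once (2.21%). HERC6 was the member gained in these counts.

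Counts between factor arrays, of members called on any array and of opposite calls were recomputed under the same alternatives, an addition made after seeing the data. Quantile normalization left 0 members lower on FOXQ1 than TWIST1, and the median of probe sets left 0 lower on TWIST1 than ZEB2. With the floor at percentile 75, 15 were lower on SNAI1 than TWIST1 (4.54% of all named genes) and 3 higher on TWIST1 than ZEB2 (1.61%). At 1.5-fold, opposite calls were 10 (3.3%). FOXQ1 then had 1 lower than SNAI1 (7.46%), 13 higher and 5 lower than TWIST1 (6.2% and 11.4%) and 4 lower than ZEB2 (12.1%). SNAI1 had 1 higher than TWIST1 (3.47%) and 2 higher than ZEB2 (3.52%), and TWIST1 had 13 higher and 4 lower than ZEB2 (7.17% and 6.14%). At 3-fold, opposite calls were 1 (0.168%). FOXQ1 then had 2 higher and 0 lower than TWIST1 (0.805% and 2.28%) and 7 higher and 1 lower than ZEB2 (1.75% and 2.89%), SNAI1 had 9 lower than TWIST1 (1.82%), and TWIST1 had 3 higher and 0 lower than ZEB2 (0.999% and 0.476%). The other recomputed counts of these kinds stayed within 1.5 times. Counts by role, by promoter match, by outside list and by order of arrays were not recomputed.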
